A study of Mus musculus with 12 samples.

Results

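The genes described here are 10 targets of p53 and of the DNA damage response: Cdkn1a, Mdm2, Sesn2, Pmaip1, Phlda3, Fas, Ccng1, Bax, Btg2 and Gadd45a. They were picked by gene symbol, with no cut on a measured value, although earlier results of these data were known, from the 14944 genes listed in any of the 4 deposited tables, 1 table per group. All 10 were listed in all 4 tables, as were 13371 genes, and all 10 were among the 12909 genes that passed a filter on low counts and were tested. p53, encoded by Trp53, is a transcription factor that is held at low levels by its ubiquitin ligase Mdm2 and is stabilised when DNA is damaged. It then activates genes for cell cycle arrest, apoptosis, repair and metabolic adaptation, and it activates Mdm2, which closes a feedback loop. In liver, p53 restrains the growth of damaged hepatocytes, and several of its targets also answer to other stress factors.

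RNA sequencing was done on liver of male C57BL/6 mice in 4 groups of 3 mice. The groups are Otud3 knockout with diethylnitrosamine (DEN KO), wild type with diethylnitrosamine (DEN WT), Otud3 knockout without it (no-DEN KO) and wild type without it (no-DEN WT), with the knockouts and wild types being littermates. Diethylnitrosamine (DEN) is a carcinogen that liver enzymes turn into a DNA-alkylating agent. It was given once, at 25 mg/kg into the peritoneum at 15 days of age, and tissue was collected 30 weeks after the injection, so the RNA was not sampled near the time of the dose. The labels give neither an age nor a sham injection for the mice without DEN, so age, injection and DEN cannot be told apart. The series describes its samples as liver cancer tissue, while the sample labels give liver, and neither says how much of each piece was tumour. Otud3 encodes a deubiquitinase, and its deleted part is not given in the labels.

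Libraries held 29668861 to 31111765 counts, and values below are TMM-scaled CPM, a gene's share of the counts of its library, unless TPM is named. DEN WT replicate 2 stood apart from the other libraries on the first principal component, which held 46.0% of the variance. Many of the results that rest on it are therefore given with and without it. Marker calls and medians over lists of genes are given with it only. Otud3 had 8.53, 12.4 and 12.3 CPM in DEN KO livers, against 18.4, 10.8 and 15.6 CPM in DEN WT livers, with overlapping groups and a log2 fold change of -0.43 ± 0.27 (SE, edgeR adjusted p = 0.581). Without DEN it had 15.7, 10.9 and 7.39 CPM in KO livers, against 13.6, 13.2 and 12.9 CPM in WT livers (log2 fold change -0.23 ± 0.27, edgeR adjusted p = 0.9999). The gene's level therefore did not check the genotype labels, and the KO groups are groups labelled knockout throughout. The 8 hepatocyte markers summed to 82347 to 88490 CPM in DEN KO, 82066 to 96042 CPM in DEN WT, 86483 to 136125 CPM in no-DEN KO and 103964 to 121719 CPM in no-DEN WT livers, and 1 of 8, Apoa1, fell with DEN. Endothelial markers summed to 143 to 180 CPM with DEN and to 50.6 to 91.0 CPM without it, and 5 of 6 rose with DEN. Kupffer cell and macrophage markers summed to 150 to 813 CPM in DEN KO, 86.4 to 264 CPM in DEN WT, 73.9 to 133 CPM in no-DEN KO and 39.5 to 135 CPM in no-DEN WT livers, and 4 of 6 rose with DEN. Stellate cell and fibroblast markers summed to 176 to 298 CPM with DEN and 59.7 to 131 CPM without, and 2 of 6 rose (Reln and Col3a1). Liver tumour markers summed to 4.54 to 18.3 CPM in DEN KO, 5.91 to 90.7 CPM in DEN WT, 3.72 to 5.18 CPM in no-DEN KO and 2.72 to 3.04 CPM in no-DEN WT livers, and 3 of 5 tested rose (Akr1c18, Afp and Igf2). These marker calls are for DEN averaged over genotypes, where 16.5% of all genes were called. Of the remaining lists, 1 of 6 T and NK cell markers rose, and 0 B cell, neutrophil, cholangiocyte or erythroid markers were called. Within a genotype only endothelial markers were called, 4 of 6 among WT livers and 2 of 6 among KO livers. No tested marker of any list was at 0 in any library. The part of these cell types in the results below was not tested, and in bulk tissue fewer cells of a type and less RNA per cell cannot be told apart.

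The DNA sequences upstream of the genes are shown because p53 acts through a short element, the p53 decamer half-site, which it usually binds as a pair. Windows from 250 bases before to 50 bases after each RefSeq start site on GRCm38.p6 were searched on both strands for the 10-base half-site, allowing no mismatch, in 10 windows of 9 members (Cdkn1a has a pair of start sites, and Pmaip1 was not searched). The half-site was in 5 of the 10 windows, against 8.36% of 32851 windows of the same length over all genes. Each match is printed in capitals with 15 bases on each side, in the gene's direction.
Cdkn1a chr17:29090891-29090930 (+): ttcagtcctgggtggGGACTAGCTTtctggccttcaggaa
Cdkn1a chr17:29090913-29090952 (+): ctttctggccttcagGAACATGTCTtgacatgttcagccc
Mdm2 chr10:117710920-117710959 (-): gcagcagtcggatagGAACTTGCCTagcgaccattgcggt
Ccng1 chr11:40755447-40755486 (-): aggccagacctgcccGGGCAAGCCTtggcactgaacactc
Bax chr7:45467075-45467114 (-): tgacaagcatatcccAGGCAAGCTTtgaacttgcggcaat
Gadd45a chr6:67037423-67037462 (-): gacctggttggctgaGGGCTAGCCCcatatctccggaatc
The matches began at bases -73 and -51 from the upstream start site of Cdkn1a, at -186 in Mdm2, -185 in Ccng1, -201 in Bax and -40 in Gadd45a. The Cdkn1a pair lies 2863 and 2841 bases before the gene's downstream start site. No window of Sesn2, Phlda3, Fas or Btg2 held the letters of the half-site, which says nothing about p53 sites elsewhere in these genes. A match is a description of the sequence and does not show that p53 binds there.

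With DEN, averaged over both genotypes, 4 of the 10 genes passed the test: Sesn2, Pmaip1 and Phlda3 rose and Fas fell. Of all genes tested, 16.5% passed in the same comparison, 8.4% higher and 8.1% lower. The balance over all genes depended on scaling: 1085 were higher and 1046 lower here, against 3613 and 243 when libraries were scaled by their totals and 4231 and 135 with limma on log2 TPM. The count of 4 depended on single mice: it was 1 without DEN KO replicate 1 or 2, no-DEN KO replicate 2 or no-DEN WT replicate 1 or 3, and 2 without DEN KO replicate 3 or no-DEN KO replicate 3. Calls over all genes moved with the fit too, from 656 to 5470 over the alternative fits, against 2131 here. The median log2 fold change was 0.12 over the 10 genes and 0.01 over all genes, with 6 of the 10 above 0. Among WT livers these medians were 0.38 and 0.03, and among KO livers -0.06 and -0.03. Cdkn1a and Mdm2 were not among those called in this fit. Mdm2 was called higher when libraries were scaled by their totals and with limma on log2 TPM. The activity of p53 was not tested. Among WT livers alone, 1 gene passed (Sesn2, higher), where 2.74% of all genes did, and among KO livers alone 0 of 10 passed, where 0.194% of all genes did. In KO livers 4 of the 10 had an unadjusted edgeR p under 0.05, as had 2458 of all 12909 genes tested. There DESeq2 called 1 (Phlda3), limma-voom 0 or, with quality weights, 2 (Phlda3 and Fas), and limma on log2 TPM 2 (Phlda3 and Ccng1). Calls over all genes in KO livers ran from 0 to 2263 over the alternative fits. In CPM, the DEN and no-DEN livers did not overlap for 4 of the 10 genes within WT (Sesn2, Phlda3, Pmaip1 and Fas), against 36% of all genes. Within KO they did not overlap for 4 of the 10 (Ccng1, Phlda3, Bax and Fas), against 31.3%. By TPM, Bax and Fas overlapped within KO.

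**Figure D1:**
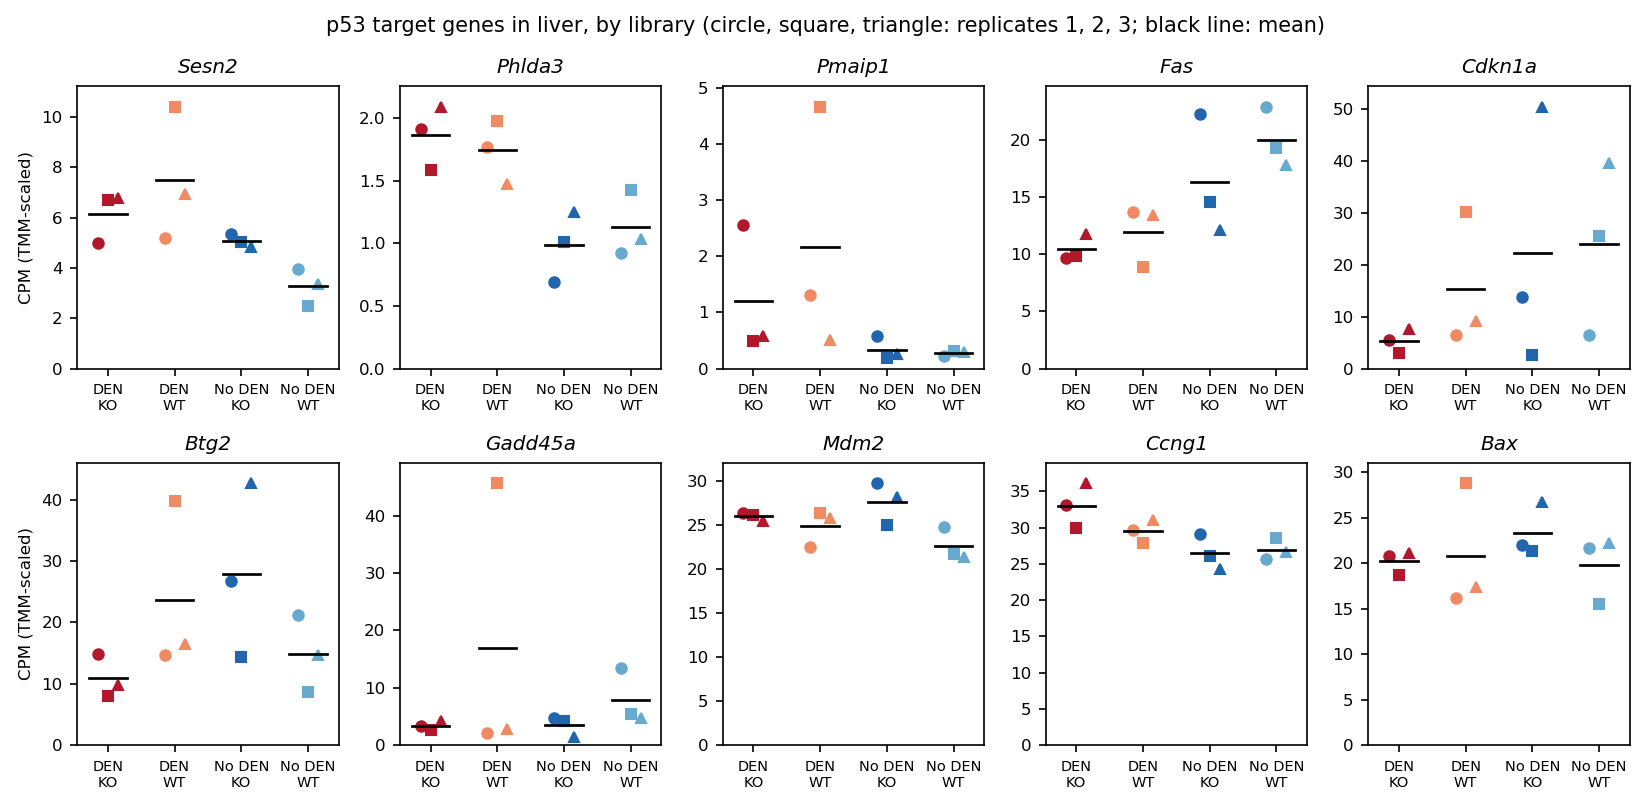
CPM of each of the 10 genes in every library, a panel per gene with its own linear axis from 0, in the order DEN KO, DEN WT, no-DEN KO and no-DEN WT. Points are mice and black lines are group means. The DEN libraries of Phlda3 (1.47 to 2.09 CPM) all lie above those without DEN (0.691 to 1.43 CPM), and 1 DEN WT library carries the highest Gadd45a value, 45.7 CPM.

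Sesn2 encodes sestrin 2, a stress-induced protein that restrains mTORC1 signalling and is induced by p53 and by other stress factors. It had 4.998, 6.70 and 6.78 CPM in DEN KO livers, 5.18, 10.4 and 6.95 CPM in DEN WT livers, 5.34, 5.02 and 4.82 CPM in no-DEN KO livers and 3.96, 2.48 and 3.35 CPM in no-DEN WT livers. The WT groups did not overlap, whereas the KO groups did, and the no-DEN WT livers were the lowest of all. Sesn2 rose 1.68-fold with DEN averaged over genotypes (log2 fold change 0.74 ± 0.19, edgeR adjusted p = 0.0259) and 2.304-fold among WT livers (1.20 ± 0.27, edgeR adjusted p = 0.0428). Among KO livers the log2 fold change was 0.28 ± 0.26 (edgeR adjusted p = 0.600). The test of the difference between the DEN effect in KO and in WT livers gave -0.92 ± 0.37 (edgeR adjusted p = 0.735), so a difference by genotype was not shown. Without DEN WT replicate 2 that difference was -0.61, the averaged change stayed called (0.59, edgeR adjusted p = 0.0222), and the change among WT livers was 0.90 (edgeR adjusted p = 0.0577). Leaving out DEN KO replicate 2 or 3, no-DEN KO replicate 2 or 3 or no-DEN WT replicate 3 ended the averaged call, with log2 fold changes of 0.70 to 0.75 and edgeR adjusted p of 0.0504 to 0.0639. The call among WT livers was also lost without DEN KO replicate 1, 2 or 3, DEN WT replicate 1, no-DEN KO replicate 2 or no-DEN WT replicate 1, 2 or 3 (1.04 to 1.402, edgeR adjusted p of 0.0559 to 0.175).

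The 250 bases before the start sites of the members that rose or fell, other than Pmaip1, are shown to let their promoters be compared. Capitals mark the CCAAT box (CCAAT) and the GC box (GGGCGG) on either strand, so that they also read ATTGG and CCGCCC.
Sesn2 chr4:132510457-132510706 (-): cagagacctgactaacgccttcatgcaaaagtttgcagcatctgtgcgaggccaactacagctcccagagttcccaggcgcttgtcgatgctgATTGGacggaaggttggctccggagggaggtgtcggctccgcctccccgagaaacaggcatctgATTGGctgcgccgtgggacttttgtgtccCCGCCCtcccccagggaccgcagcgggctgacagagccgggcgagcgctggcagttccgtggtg
Phlda3 chr1:135765835-135766084 (+): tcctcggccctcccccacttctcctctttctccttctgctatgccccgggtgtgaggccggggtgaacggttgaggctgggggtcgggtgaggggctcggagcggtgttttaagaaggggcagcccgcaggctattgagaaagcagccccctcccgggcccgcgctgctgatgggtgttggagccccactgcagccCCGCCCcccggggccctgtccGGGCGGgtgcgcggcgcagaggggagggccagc
Fas chr19:34290409-34290658 (+): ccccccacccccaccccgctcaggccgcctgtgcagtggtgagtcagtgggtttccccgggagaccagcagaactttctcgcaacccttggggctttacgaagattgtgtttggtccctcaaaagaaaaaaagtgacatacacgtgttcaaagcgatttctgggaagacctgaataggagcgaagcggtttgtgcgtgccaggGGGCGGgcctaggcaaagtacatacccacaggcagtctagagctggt
These boxes do not overlap each other in the windows shown. Sesn2 has a pair of CCAAT boxes and 1 GC box, Phlda3 has GC boxes beginning at bases -54 and -33, and Fas has 1 at -47. A GC box was in 8 of the 10 member windows and in 35.7% of all windows, and a CCAAT box in 5 of 10 and in 37.4%. G and C made up 63.2% of the bases shown for Sesn2, 71.2% for Phlda3 and 56.4% for Fas. The cyclic AMP element TGACGTCA was in 1 member window, that of Btg2, and in 1.79% of all windows, and TATAAA was in 0 member windows and in 13.6% of all. Sequences and start sites are from RefSeq.

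Pmaip1 encodes Noxa, a protein of the BH3-only class that neutralises pro-survival members of the Bcl2 family. It had 2.56, 0.488 and 0.575 CPM in DEN KO livers, 1.31, 4.66 and 0.513 CPM in DEN WT livers, 0.576, 0.181 and 0.257 CPM in no-DEN KO livers and 0.222, 0.306 and 0.295 CPM in no-DEN WT livers. These are few reads: 16 to 186 counts with DEN and 5 to 15 counts without. WT livers with and without DEN did not overlap, but 3 DEN libraries of 6 lay near 0.5 CPM, within the range of the no-DEN KO livers. Pmaip1 rose 5.28-fold with DEN over both genotypes (log2 fold change 2.40 ± 0.63, edgeR adjusted p = 0.0307). The log2 fold change was 2.97 ± 0.90 among WT livers (edgeR adjusted p = 0.0774) and 1.83 ± 0.88 among KO livers (edgeR adjusted p = 0.289). Without DEN WT replicate 2 it was 1.72 among WT livers (edgeR adjusted p = 0.204). Over both genotypes it was 1.78 (edgeR adjusted p = 0.0358) without that library and 1.81 (edgeR adjusted p = 0.0791) without DEN KO replicate 1. The averaged value was 2.25 to 2.44 (edgeR adjusted p of 0.0526 to 0.0760) without no-DEN KO replicate 2 or 3 or no-DEN WT replicate 1, 2 or 3. The highest DEN KO library for Pmaip1, replicate 1, also had the highest sums of Kupffer cell and macrophage markers (813 CPM) and of B cell markers (29.9 CPM) of its group, where the other DEN KO livers had 183 and 150 CPM and 1.80 and 1.88 CPM. The library with the most Pmaip1 of all, DEN WT replicate 2, had the lowest sum of Kupffer cell and macrophage markers among the DEN livers, 86.4 CPM. The part of these cells in the Pmaip1 value was not tested.

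Phlda3 encodes a small protein with a pleckstrin homology domain that competes with AKT for membrane lipids. It had 1.91, 1.58 and 2.09 CPM in DEN KO livers, 1.77, 1.98 and 1.47 CPM in DEN WT livers, 0.691, 1.01 and 1.25 CPM in no-DEN KO livers and 0.926, 1.43 and 1.03 CPM in no-DEN WT livers. Every DEN library lay above every library without DEN. It was the only one of the 10 genes with no overlap between the 6 DEN and the 6 no-DEN libraries, a property that 5.04% of all genes had in this direction. Phlda3 rose 1.71-fold over both genotypes (log2 fold change 0.77 ± 0.21, edgeR adjusted p = 0.0325), with 0.92 ± 0.29 among KO livers (edgeR adjusted p = 0.143) and 0.62 ± 0.29 among WT livers (edgeR adjusted p = 0.176). The gene is weakly expressed in these livers, with 46 to 79 counts in the DEN libraries and 18 to 42 counts in the others. Leaving out any DEN KO library, DEN WT replicate 1, no-DEN KO replicate 2 or no-DEN WT replicate 1 or 3 ended the call (edgeR adjusted p of 0.0524 to 0.0850), while the log2 fold change stayed between 0.71 and 0.82.

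Fas encodes a death receptor of the tumour necrosis factor receptor family, abundant on hepatocytes. It had 9.70, 9.87 and 11.8 CPM in DEN KO livers, 13.7, 8.88 and 13.5 CPM in DEN WT livers, 22.3, 14.6 and 12.2 CPM in no-DEN KO livers and 22.9, 19.3 and 17.8 CPM in no-DEN WT livers. Within each genotype the DEN livers lay below those without DEN in CPM, with no overlap. By TPM the KO groups overlapped, with 10.98 to 13.08 TPM with DEN and 10.55 to 17.72 TPM without. Fas fell with DEN over both genotypes (log2 fold change -0.69 ± 0.17, edgeR adjusted p = 0.0224), with -0.64 ± 0.24 among KO livers (edgeR adjusted p = 0.182) and -0.74 ± 0.23 among WT livers (edgeR adjusted p = 0.0835). Without DEN WT replicate 2, Fas still fell (-0.60, edgeR adjusted p = 0.0209), and without DEN KO replicate 1 or 2 or no-DEN WT replicate 1 it was not called (-0.67 to -0.64, edgeR adjusted p of 0.0547 to 0.0591). On log2 TPM the difference was -0.29 (limma adjusted p = 0.106). It was the one called member that was lower with DEN.

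Bax encodes the pore-forming protein of mitochondrial apoptosis. It had 20.8, 18.6 and 21.1 CPM in DEN KO livers, 16.2, 28.8 and 17.4 CPM in DEN WT livers, 22.0, 21.3 and 26.7 CPM in no-DEN KO livers and 21.7, 15.5 and 22.2 CPM in no-DEN WT livers. The DEN KO libraries were all below the no-DEN KO libraries in CPM, and the WT groups overlapped. By TPM the KO groups overlapped too, with 40.95 to 46.97 TPM with DEN and 34.6 to 45.85 TPM without. With DEN over both genotypes Bax did not pass (log2 fold change -0.07 ± 0.15, edgeR adjusted p = 0.774), and the change was 0.23 when libraries were scaled by their totals, 0.31 on log2 TPM and -0.22 without DEN WT replicate 2. By TPM, which corrects for transcript length, Bax was the highest of the 10 genes, with 43.2 ± 14.7 TPM over the 12 libraries (SD).

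**Figure D2:**
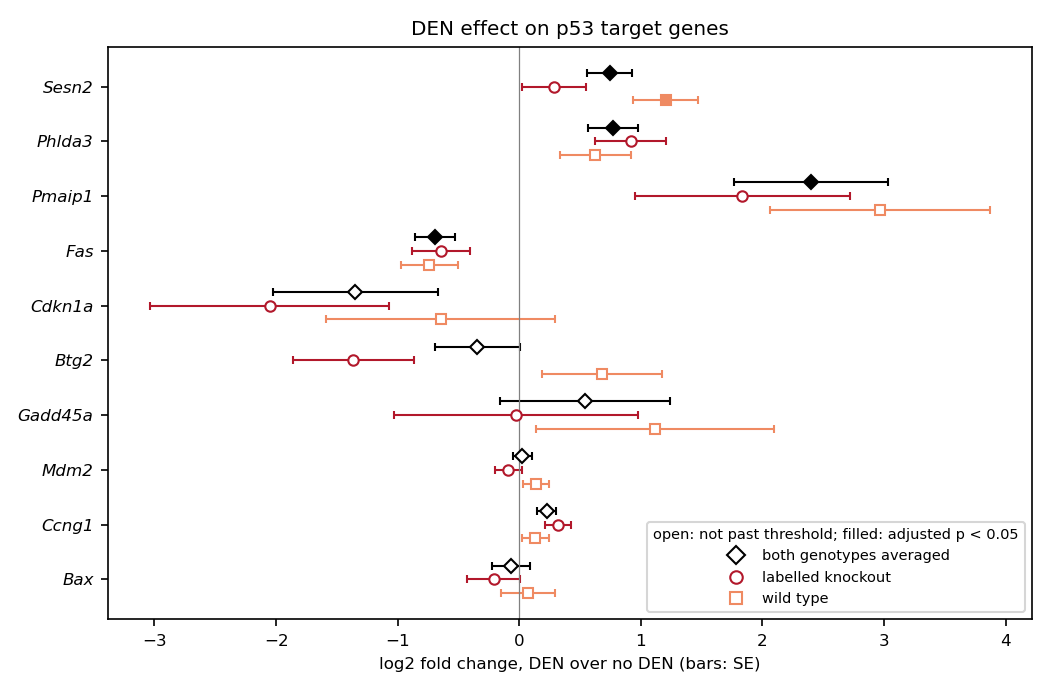
Log2 fold change with DEN for each of the 10 genes, in KO livers, in WT livers and averaged over genotypes, with bars of 1 standard error. Sesn2, Pmaip1 and Phlda3 lie above 0 and Fas lies below 0 in both genotypes, and Gadd45a, Cdkn1a and Pmaip1 have the widest bars.

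Cdkn1a encodes p21, the inhibitor of cyclin-dependent kinases through which p53 arrests the cell cycle. It had 5.41, 3.02 and 7.69 CPM in DEN KO livers, 6.50, 30.1 and 9.16 CPM in DEN WT livers, 13.9, 2.64 and 50.4 CPM in no-DEN KO livers and 6.52, 25.6 and 39.7 CPM in no-DEN WT livers. Each group other than DEN KO held both low and high livers, and all the groups overlapped. No-DEN KO livers alone spanned 19.1-fold. The log2 fold change with DEN was -1.35 ± 0.68 over both genotypes (edgeR adjusted p = 0.177), -2.05 ± 0.98 among KO livers (edgeR adjusted p = 0.286) and -0.65 ± 0.94 among WT livers (edgeR adjusted p = 0.659). Over both genotypes it was -1.83 (edgeR adjusted p = 0.0858) without DEN WT replicate 2 and -0.63 without no-DEN KO replicate 3. Among WT livers it was -1.61 (edgeR adjusted p = 0.356) without DEN WT replicate 2.

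Btg2 encodes an antiproliferative protein that acts with the CCR4-NOT deadenylase. It had 14.9, 7.95 and 9.72 CPM in DEN KO livers, 14.7, 39.8 and 16.5 CPM in DEN WT livers, 26.8, 14.4 and 42.6 CPM in no-DEN KO livers and 21.2, 8.59 and 14.7 CPM in no-DEN WT livers. DEN WT and no-DEN KO held the highest livers, and the groups overlapped in each comparison. Its DEN effect was -1.36 ± 0.50 among KO livers (edgeR adjusted p = 0.184) and 0.68 ± 0.49 among WT livers (edgeR adjusted p = 0.368). The difference between them, -2.04 ± 0.70, had the smallest unadjusted p of the 10 genes in that test (0.0146) and an edgeR adjusted p of 0.735. Over both genotypes it gave -0.34 ± 0.35 (edgeR adjusted p = 0.504), while limma on log2 TPM gave 0.06. Without DEN WT replicate 2 the value was -0.64 over both genotypes and 0.078 among WT livers.

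Gadd45a encodes a stress sensor that binds PCNA and activates the p38 and JNK kinases. It had 3.29, 2.65 and 4.27 CPM in DEN KO livers, 2.13, 45.7 and 2.79 CPM in DEN WT livers, 4.76, 4.19 and 1.47 CPM in no-DEN KO livers and 13.4, 5.33 and 4.72 CPM in no-DEN WT livers. A single library, DEN WT replicate 2, held a value far above every other. The log2 fold change with DEN over both genotypes was 0.54 ± 0.70 (edgeR adjusted p = 0.601) with that library and -0.84 ± 0.36 (edgeR adjusted p = 0.112) without it. Among WT livers it was 1.12 ± 0.98 (edgeR adjusted p = 0.455) with that library and -1.66 ± 0.56 (edgeR adjusted p = 0.109) without it. Gadd45a overlaps a long noncoding RNA, E230016M11Rik, and reads of the pair cannot be told apart without a stated strand setting.

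DEN WT replicate 2 was also the highest DEN library for Cdkn1a, Btg2, Bax, Sesn2 and Pmaip1 and for Trp53. Its summed CPM was 862 over 17 tested targets of ATF4, a stress factor that also induces Sesn2, Gadd45a and Ddit3, and 398 over 24 cell cycle genes. The other DEN WT livers had 298 and 357 CPM over the ATF4 targets and 145 and 150 CPM over the cell cycle genes. Its tumour markers summed to 90.7 CPM and its stellate cell and fibroblast markers to 298 CPM, against 5.91 and 9.52 CPM and 202 and 176 CPM in the other DEN WT livers. The part of these programmes and cells in the members' values was not tested.

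Mdm2 and Ccng1 stand in the feedback on p53: Mdm2 is the ubiquitin ligase that degrades it, and cyclin G1 brings a phosphatase to Mdm2. Mdm2 had 26.4, 26.2 and 25.4 CPM in DEN KO livers, 22.5, 26.4 and 25.8 CPM in DEN WT livers, 29.8, 25.1 and 28.2 CPM in no-DEN KO livers and 24.8, 21.7 and 21.4 CPM in no-DEN WT livers. All 12 livers lay within a 1.39-fold range. With DEN over both genotypes the log2 fold change of Mdm2 was 0.02 ± 0.08 (edgeR adjusted p = 0.845). Scaling by library totals, which shifts the median of all genes by 0.27, gave 0.30 (edgeR adjusted p = 0.0436), close to that shift, and limma on log2 TPM gave 0.40 (adjusted p = 0.0312).

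Ccng1 had 33.1, 29.9 and 36.1 CPM in DEN KO livers, 29.6, 27.8 and 31.1 CPM in DEN WT livers, 29.1, 26.0 and 24.3 CPM in no-DEN KO livers and 25.6, 28.6 and 26.6 CPM in no-DEN WT livers. KO livers with DEN lay above those without, and the WT groups overlapped. The log2 fold change with DEN was 0.23 ± 0.08 over both genotypes (edgeR adjusted p = 0.0668) and 0.32 ± 0.11 among KO livers (edgeR adjusted p = 0.161). The averaged value passed the threshold in 7 of 22 alternatives. Among them were DESeq2 (0.22, adjusted p = 0.0438), limma-voom with quality weights (0.23, adjusted p = 0.0156), library size scaling (0.50, edgeR adjusted p = 0.00506), limma on log2 TPM (0.61, adjusted p = 0.00556) and the fit without DEN WT replicate 2 (0.25, edgeR adjusted p = 0.0471).

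Trp53 itself had 19.8, 17.8 and 16.6 CPM in DEN KO livers, 19.03, 40.5 and 19.3 CPM in DEN WT livers, 21.1, 22.7 and 25.1 CPM in no-DEN KO livers and 27.1, 24.0 and 26.5 CPM in no-DEN WT livers. Apart from DEN WT replicate 2, every DEN liver had less Trp53 in CPM than every liver without DEN. By TPM the same livers overlapped, with 14.41 to 17.43 TPM with DEN and 12.93 to 18.9 TPM without. The log2 fold change over both genotypes was -0.16 ± 0.18 (edgeR adjusted p = 0.539) with that library and -0.39 ± 0.08 (edgeR adjusted p = 0.00965) without it, and scaling by library totals gave 0.14 and log2 TPM 0.18 with all libraries. p53 is controlled largely at the protein level, and no protein was measured here.

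The knockout label was then compared at each treatment. With DEN, 0 of the 10 genes passed between KO and WT livers, where 0% of all genes did. An unadjusted edgeR p under 0.05 was found for 2 of the 10, Btg2 and Gadd45a, and for 1308 of all 12909 genes tested. None of the 10 was free of overlap between the genotypes, where 19.6% of all genes were. Btg2 averaged 10.8 ± 3.60 CPM in DEN KO livers and 23.7 ± 14.0 CPM in DEN WT livers (SD, n = 3 mice each; log2 fold change -1.13 ± 0.50, edgeR adjusted p = 0.480), and its log2 fold change was -0.51 without DEN WT replicate 2. Gadd45a averaged 3.40 ± 0.815 CPM in DEN KO livers and 16.9 ± 25.0 CPM in DEN WT livers (log2 fold change -2.31 ± 1.02, edgeR adjusted p = 0.480), and without that library the value was 0.48. Cdkn1a averaged 5.37 ± 2.34 CPM in DEN KO livers and 15.3 ± 12.9 CPM in DEN WT livers (log2 fold change -1.51 ± 0.97, edgeR adjusted p = 0.588), and without that library the value was -0.53. For these genes the SD within the DEN WT group was larger than the distance between the group means.

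Without DEN, 0 of the 10 genes passed between KO and WT livers, where 0% of all genes did. An unadjusted edgeR p under 0.05 was found for 477 of all 12909 genes tested, and of the 10 for Mdm2 and Sesn2. Both were higher in every no-DEN KO liver than in every no-DEN WT liver, a property that 4.76% of all genes had in this direction. Mdm2 averaged 27.7 ± 2.40 CPM in no-DEN KO livers and 22.6 ± 1.88 CPM in no-DEN WT livers (SD, n = 3 mice each; log2 fold change 0.29 ± 0.11, edgeR adjusted p = 0.9999). Sesn2 averaged 5.06 ± 0.262 CPM in no-DEN KO livers and 3.27 ± 0.745 CPM in no-DEN WT livers (log2 fold change 0.63 ± 0.27, edgeR adjusted p = 0.9999). Averaged over treatments and in the test of whether the DEN effect depended on genotype, 0 of the 10 passed and 0% of all genes passed. In each, 2 of the 10 had an unadjusted edgeR p under 0.05, as had 869 and 842 of all 12909 genes tested. DESeq2 and limma called 0 of the 10 in each of these 4 comparisons as well, where DESeq2 gave no adjusted p for Gadd45a and, between KO and WT livers with DEN, none for Phlda3 and Pmaip1.

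**Figure D3:**
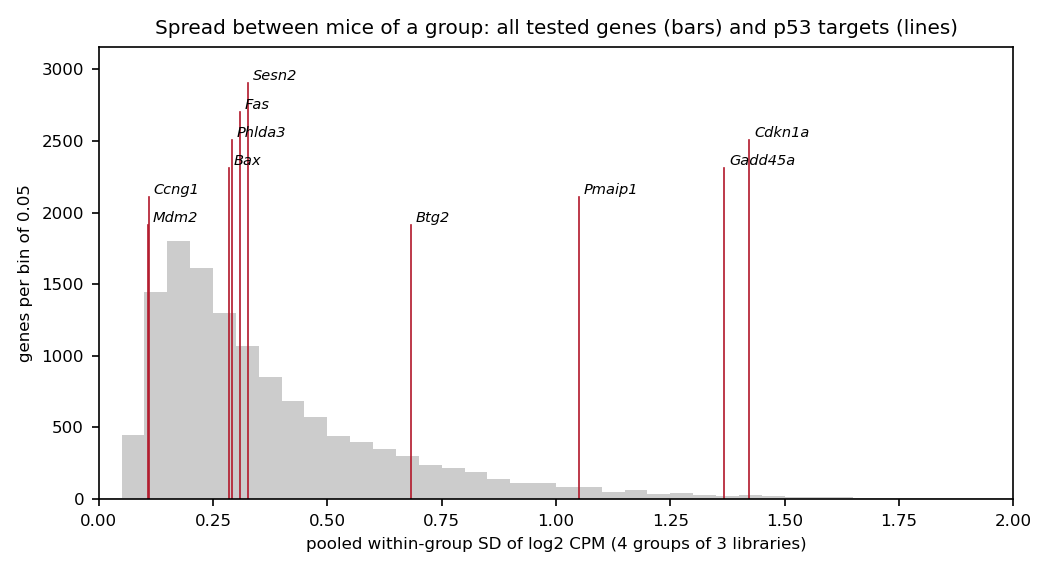
Histogram of the spread between mice of the same group (SD of log2 CPM, pooled over the 4 groups) for all tested genes, with lines at the 10 members. Cdkn1a (1.42), Gadd45a (1.37) and Pmaip1 (1.05) lie in the right tail and Mdm2 and Ccng1 (both 0.11) at the left edge.

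The members differed widely in how much they varied between mice treated alike. The pooled SD of log2 CPM within groups was 1.42 for Cdkn1a, larger than that of 98.5% of all genes, 1.37 for Gadd45a (98.3%), 1.05 for Pmaip1 (95.8%) and 0.68 for Btg2 (86.5%). It was 0.11 for Mdm2 and for Ccng1, larger than that of only 4.73% and 5.11% of genes. The remaining members, Sesn2 (0.33), Fas (0.31), Phlda3 (0.29) and Bax (0.28), were near the median of all genes, 0.29. Without DEN WT replicate 2 the SD of Gadd45a was 0.68 (93.7% of genes below) and that of Cdkn1a was 1.396 (99.7%). The least and the most variable members thus lay near opposite ends of the range over all genes.

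By TPM, the mean over the 12 libraries was 43.2 for Bax, 14.7 for Fas, 12.2 for Cdkn1a, 11.95 for Gadd45a, 10.955 for Ccng1, 10.7 for Mdm2, 8.39 for Btg2, 2.92 for Sesn2, 1.51 for Phlda3 and 0.603 for Pmaip1. The genes between Fas and Btg2 in this order do not differ beyond their spread over libraries, since Cdkn1a and Gadd45a had SDs of 11.5 and 23.4 TPM. The members that rose with DEN were the 3 with the lowest TPM.

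Over the 12 libraries, the genes with a mean of at least 1 CPM whose levels ranked most like Cdkn1a were Cdk5rap3 (Spearman rho 0.90, Pearson r of log2 CPM 0.86), Ufc1 (0.90 and 0.85) and Rabl2 (0.90 and 0.78). Cdk5rap3 and Ufc1 belong to the UFMylation system, in which the small modifier Ufm1 is attached to proteins. Those most like Mdm2 were Arpc1b (rho 0.88, r 0.67), Fam135a (0.87 and 0.61) and Zbtb45 (0.87 and 0.41). These are the top 3 of 11499 genes searched for each, the points share libraries and DEN WT replicate 2 is among them, and the values are descriptions only.

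The related lists below are read against the 16.5% of all genes called with DEN over both genotypes: 13.3% of the tested p53 regulators were called, 9.09% of the further p53 targets, 19.2% of the damage sensors, 11.8% of the repair genes, 11.8% of the ATF4 targets and 12.5% of the cell cycle genes. Only the share of the damage sensors lies above that for all genes, and the differences from it were not tested. Of 15 tested regulators of p53, 1 rose, the kinase gene Hipk2 (log2 fold change 0.43 ± 0.13, edgeR adjusted p = 0.0489), and 1 fell, the p53 ubiquitin ligase gene Rchy1 (-0.45 ± 0.08, edgeR adjusted p = 0.00846). Rchy1 fell also among WT livers alone (-0.52 ± 0.11, edgeR adjusted p = 0.0411). The median over the 15 was -0.07. Of 33 further p53 targets, Eda2r, a death receptor relative, rose (1.16 ± 0.36, edgeR adjusted p = 0.0490), and Gadd45g and Rps27l fell (-2.21 ± 0.57 and -0.48 ± 0.14, edgeR adjusted p = 0.0282 and 0.0452). Their median was 0.06, against 0.01 over all genes. Rchy1 and Rps27l were not called when libraries were scaled by their totals. The calls of Hipk2 and Eda2r were lost in 15 of 22 and 14 of 21 alternatives, that of Rps27l in 11 of 22, that of Gadd45g in 6 of 22 and that of Rchy1 in 2 of 22 (12 of 23 among WT livers).

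Of 26 tested sensors and checkpoint genes of the DNA damage response, 4 rose and 1 fell with DEN. The median log2 fold change was 0.14, with 0.28 among WT livers and 0.005 among KO livers. Wee1, the kinase that holds CDK1 inactive, had the largest change of these (2.35 ± 0.47, edgeR adjusted p = 0.0136), averaging 17.1 ± 2.24 CPM in DEN KO, 17.0 ± 5.28 CPM in DEN WT, 4.86 ± 5.01 CPM in no-DEN KO and 2.31 ± 1.38 CPM in no-DEN WT livers. Bard1, the partner of Brca1, rose (1.67 ± 0.39, edgeR adjusted p = 0.0205), at 0.454 CPM with DEN and 0.140 CPM without, and Topbp1, an activator of ATR, also rose (0.36 ± 0.10, edgeR adjusted p = 0.0373). Rad52, a recombination gene, fell (-0.57 ± 0.11, edgeR adjusted p = 0.0127), and the remaining call was Atr itself (0.40 ± 0.12, edgeR adjusted p = 0.0462), named after its value was seen. Of 34 genes for repair of alkylated and damaged bases, 2 rose and 2 fell, with a median of -0.12. Ercc3, a helicase of TFIIH, and Parp1, a sensor of strand breaks, rose (0.36 ± 0.08 and 0.38 ± 0.09, edgeR adjusted p = 0.0170 and 0.0214). Alkbh2, which reverses alkylation of DNA bases, fell (-0.68 ± 0.18, edgeR adjusted p = 0.0325). Rad52 and Alkbh2 were not called on log2 TPM. Of 22 alternatives, the call was lost in 12 for Atr, 9 for Topbp1, 9 for Alkbh2, 3 for Parp1, 2 for Rad52 and 0 for Wee1 and Ercc3, and that of Bard1 was lost in 2 of 20.

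Of 17 tested ATF4 stress targets, Ddit3, which encodes the transcription factor CHOP, rose (1.98 ± 0.60, edgeR adjusted p = 0.0469), and Chac1, a glutathione-degrading enzyme gene, fell (-1.11 ± 0.19, edgeR adjusted p = 0.00876). Ddit3 averaged 10.2 ± 1.62 CPM in DEN KO, 88.8 ± 122 CPM in DEN WT, 9.01 ± 1.94 CPM in no-DEN KO and 6.46 ± 2.56 CPM in no-DEN WT livers, and its log2 fold change was 0.86 without DEN WT replicate 2. The median of the ATF4 targets was 0.23, with 1.32 among WT livers and -0.03 among KO livers. Of 24 cell cycle genes, 3 rose and 0 fell, with a median of 0.69. That median was 1.34 among WT livers, with 21 of 24 above 0, and 0.08 among KO livers, with 14 of 24 above 0. The part of DEN WT replicate 2 in these medians was not tested. Ccne2, which encodes cyclin E2, rose (2.21 ± 0.29, edgeR adjusted p = 0.0039), with 2.02 ± 0.230 CPM in DEN KO, 2.99 ± 0.357 CPM in DEN WT, 0.552 ± 0.376 CPM in no-DEN KO and 0.501 ± 0.0834 CPM in no-DEN WT livers. Cdkn2c and Cdkn2b, which encode inhibitors of the cyclin D kinases, rose as well (0.84 ± 0.24 and 2.80 ± 0.86, edgeR adjusted p = 0.0402 and 0.0489), and Cdkn2b stood at 1.11 without DEN WT replicate 2. Of 22 alternatives, the call was lost in 12 for Ddit3, 10 for Cdkn2c and 0 for Chac1 and Ccne2, and that of Cdkn2b was lost in 13 of 21. No gene of these lists was called by edgeR among KO livers alone or between genotypes.

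**Figure D4:**
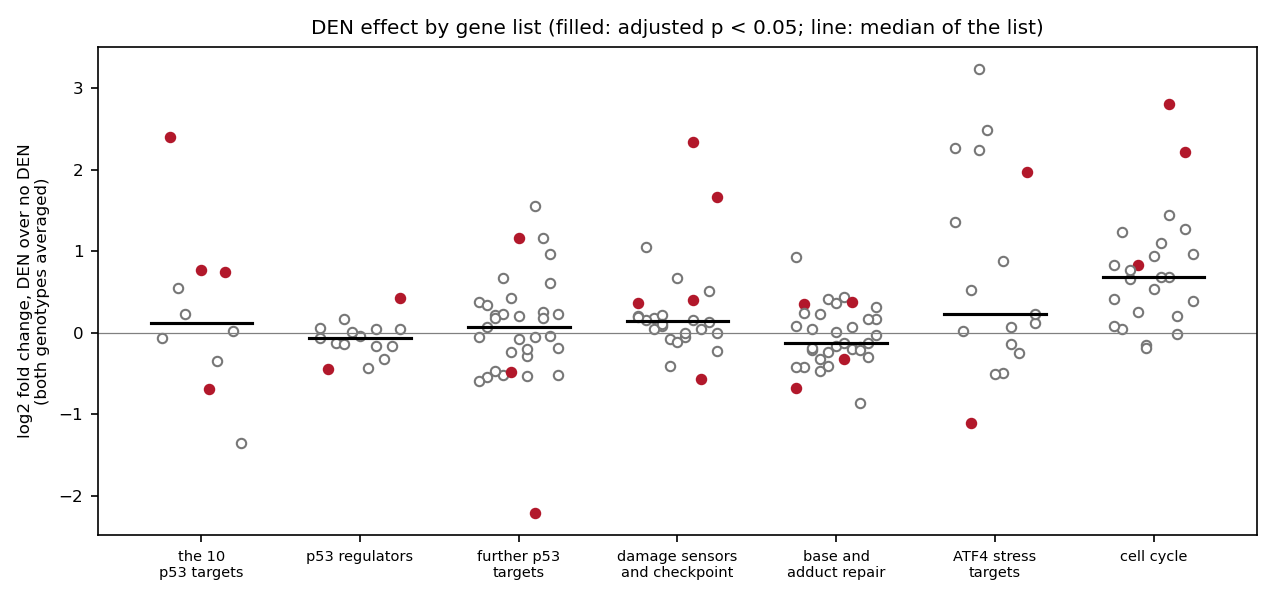
Log2 fold change with DEN, averaged over genotypes, for the tested genes of the 10 members and of each related list, with filled points for genes past the threshold and a bar at each list's median. Medians lie between -0.12 for the repair genes and 0.69 for the cell cycle genes, and every list holds called genes on at least 1 side of 0. The cell cycle median was 1.34 among WT livers, which include DEN WT replicate 2, and 0.08 among KO livers.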

How the data were processed

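Liver RNA from 12 mice was sequenced, 3 per group. Per the file headers, the authors deposited for each gene and library a read count and a TPM, in 1 table per group. The deposited counts are expected counts, since 6.58% to 7.39% of a library's values are fractional. The authors' TPM values served for levels between genes and as an alternative. Per the submitters' processing notes, the authors' tools were RSEM 1.3.1, Bowtie2 2.3.4.3, HISAT2 2.2.1 and DESeq2 1.4.5 on GRCm38.p6. What each did is not given in the sources used here, nor is the strand setting. Tables list only mRNA genes with a TPM of 0.01 or more.

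Counts were rounded, scaled by TMM and filtered by group with filterByExpr, which left 12909 of the 13371 genes listed in all 4 tables. One edgeR 4.0.16 quasi-likelihood model (glmQLFit and glmQLFTest, robust, R 4.3.3) took in all 12 libraries, with a coefficient for each of the 4 groups and 8 residual degrees of freedom. The adjusted p is Benjamini-Hochberg over all tested genes, two-sided, with 0.05 as the threshold. "Rose" and "fell" are used only past it. Errors of log2 fold changes are standard errors. DESeq2 1.42.0 and limma 3.58.1 (voom, and log2 of TPM plus 0.1) were alternatives, with other scalings, filters and omitted libraries. The fit was tested on simulated data.

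The members and gene lists were chosen with earlier results of these data known. The text names all 10 members, Otud3, Trp53 and, from each other list, at most 4 called genes with the smallest adjusted p; 1 called repair gene is not reported here. P-values rest on the spread between mice of the same group, estimated over all 4 groups together and moderated across genes. The number of mice limits the precision, and low counts add to this for genes such as Pmaip1 (5 to 15 counts without DEN). Libraries within a group differed by more than sampling noise in every pair.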

Additional observations from a re-analysis of the deposited data

How the results depend on the processing

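With DEN over both genotypes, 4 members were called, and 2131 of all genes (656 to 5470 over the alternatives). The other tools, scalings and filters gave 3 to 6, and leaving out 1 library gave 1 to 5: 1 without DEN KO replicate 1 or 2, no-DEN KO replicate 2 or no-DEN WT replicate 1 or 3, 2 without DEN KO replicate 3 or no-DEN KO replicate 3, and 5 without DEN WT replicate 2 or no-DEN KO replicate 1. Among WT livers 1 was called. This count was 3 with DESeq2, 2 with library size scaling and 2 with limma-voom quality weights, 0 with limma-voom, 0 with only the groups compared and 0 with the replicate block, and 0 to 2 when 1 library was left out. Calls over all genes among WT livers ran from 0 to 4209 over the alternatives, against 354. Among KO livers 0 were called, 1 with library size scaling, 1 with DESeq2, 2 with quality weights and 2 on log2 TPM. Calls over all genes there ran from 0 to 2263, against 25. The cause was not tested. Between genotypes and for the interaction, no alternative called a member. A pairing of mice by replicate number was not shown. Libraries of the same number had correlations of -0.19 to 0.22, and libraries of other numbers -0.215 to 0.200. With 3 mice per group these values cannot exclude a pairing. The replicate block changed no other count of members called by over 1.5 times.

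Signs changed as follows over both genotypes. Library size scaling gave 0.23 for Bax and 0.14 for Trp53. Log2 TPM gave 0.31 for Bax, 0.058 for Btg2 and 0.18 for Trp53. Quality weights gave -0.76 for Gadd45a, -1.23 for Gadd45a among WT livers and 0.25 for Gadd45a between genotypes with DEN. Leaving out 1 library gave Mdm2 -0.011 to 0.057, Bax -0.22 to 0.00348 and Gadd45a -0.84 to 0.86. It gave Gadd45a -1.66 to 1.74 among WT livers and -2.81 to 0.48 between genotypes with DEN, and Otud3 -0.54 to 0.00354 between genotypes without DEN.

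Over all genes, calls numbered 2131 with DEN over both genotypes (656 to 5470 over the alternatives), 354 among WT livers (0 to 4209), 25 among KO livers (0 to 2263), 0 between genotypes with DEN (0 to 510), 0 without DEN (0 to 5), 0 averaged over treatments (0 to 109) and 0 for the interaction (0 to 13). Of 22 alternatives, the call was lost in 5 for Sesn2, 7 for Phlda3, 7 for Pmaip1 and 4 for Fas, all with their direction kept. Library size scaling shifted the median of all genes by 0.27 with DEN. With 3 mice per group, small changes in Cdkn1a, Gadd45a or Pmaip1 could not be resolved, and some large estimates were not called either. With DEN, the log2 fold change of Cdkn1a was -2.05 among KO livers (edgeR adjusted p = 0.286). That of Pmaip1 was 2.97 among WT livers (edgeR adjusted p = 0.0774). A gene not called may therefore have changed.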
